A study of Mus musculus with 6 samples.

Results

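The genes of glycolysis, lactate transport and the pentose phosphate pathway were followed in mouse cornea through 34 genes, taken by symbol from a deposited count table of 35673 genes, and all 34 were found. The libraries were 3 titled Cationorm and 3 titled Control, from the corneas of male C57BL/6J mice aged 6 to 8 weeks. Cationorm is an eye drop, a cationic oil-in-water emulsion. Dry eye was induced, per the labels, by 0.1% benzalkonium chloride, a preservative with detergent action, together with contact lenses worn for 6 h a day, and drops of 5 µL then followed for 14 days. The protocol names saline, hyaluronic acid and Cationorm as the drops and does not say which of these, if any, the Control mice were given. All 6 libraries are tagged with the dry eye condition and share a treatment tag, so whether Control mice had dry eye cannot be told from the labels.

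Glycolysis splits glucose into pyruvate in the cytosol, lactate dehydrogenase turns pyruvate into lactate, and monocarboxylate transporters carry lactate out of the cell together with a proton. The pentose phosphate pathway branches off at glucose 6-phosphate and yields NADPH and ribose. The corneal epithelium has no blood vessels, takes most of its glucose from the aqueous humour, stores glycogen and releases lactate, and its pentose phosphate pathway is known to be active. Several steps are run by isozymes that differ between tissues, such as enolase 3 in skeletal muscle and enolase 2 in neurons.

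Total counts lay between 32486043 and 39193311 per library, and the 34 genes held 0.623%, 0.696% and 0.733% of them in Cationorm 1 to 3, against 0.723%, 0.671% and 0.718% in Control 1 to 3. Markers of corneal epithelium summed to between 57630 and 62190 CPM (counts scaled to a common library total with TMM factors) in Cationorm and between 55460 and 59300 CPM in Control, so the labelled tissue was present in every library. Markers of corneal endothelium summed to 1335, 1229 and 1189 CPM in Cationorm, against 1156, 1096 and 1154 CPM in Control, without overlap between the groups. Those of corneal stroma keratocytes summed to 3433, 2310 and 2201 CPM in Cationorm, against 2750, 2735 and 2711 CPM in Control. Cationorm 1 lay above all Control libraries and the other Cationorm libraries below them. RNA of neighbouring tissues was present too. The 14 retina markers, all detected in every library, summed to 2897, 2257 and 7193 CPM in Cationorm 1 to 3, against 8807, 7724 and 5883 CPM in Control 1 to 3. The 12 skeletal muscle markers, of which Tnnc2 was at 0 counts in 4 libraries, summed to 99.96, 2549 and 1042 CPM in Cationorm, against 814, 138 and 1469 CPM in Control. The 11 markers of iris, ciliary body and pigment cells, all detected in every library, summed to 1555, 1274 and 1215 CPM in Cationorm, against 509, 446 and 1093 CPM in Control, with no overlap between the groups. The 12 lens markers found, of which Lenep was at 0 counts in 2 libraries, summed to 1851, 4116 and 6679 CPM in Cationorm, against 91.4, 3506 and 2884 CPM in Control, with Control 1 far below the rest. In tissue of this kind, fewer cells of a type and less RNA per cell cannot be told apart.

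None of the 34 genes passed the test of Cationorm against Control. The quasi-likelihood test of edgeR, fitted over 18804 genes with Benjamini-Hochberg adjustment, called 0 members and 0.0% of all genes (adjusted p under 0.05), DESeq2 called 0 members and 51 genes, with 3649 genes given no adjusted p, and limma-voom called 0 genes. At an unadjusted p under 0.05, edgeR gave 4 members higher in Cationorm (11.8% of the members, against 5.16% of all genes tested) and 0 members lower (against 3.57%), where both directions together held 8.73% of all genes. The 4 were Slc2a1, Aldoc, Ldhb and Pgd, and each had an adjusted p of 0.550. That count of 4 became 0 without Cationorm 2, 1 without Cationorm 1, Control 1 or Control 2, and 5 without Control 3. The count of members lower became 6 without Cationorm 3, in a fit that called 350 genes at an adjusted p under 0.05. Shares of all genes at the unadjusted level were not computed for the fits with a library left out. The levels of Cationorm lay wholly above those of Control in 3 members (8.82%, against 8.73% of all genes) and wholly below in 1 member (2.94%, against 6.09%), shares close to or under those of all genes. The median log2 fold change (Cationorm over Control) was -0.02 over the members, 14 of them above 0 and 20 below, and 0.01 over all genes tested.

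**Figure D1:**
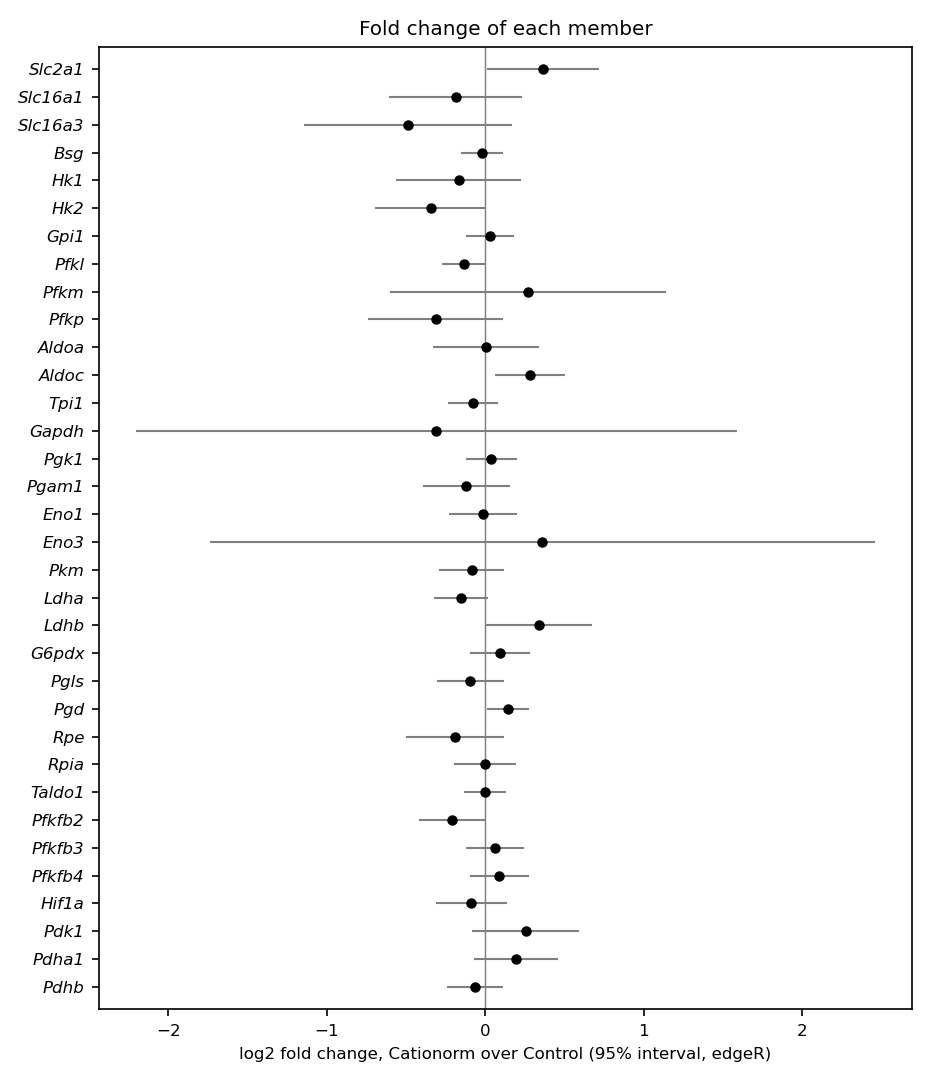
Log2 fold change of Cationorm over Control for each of the 34 genes (points, horizontal axis) with its 95% interval from edgeR (bars), in pathway order from top to bottom. Most intervals are narrow and hold 0, those of Gapdh (-2.20 to 1.59) and Eno3 (-1.74 to 2.46) are the widest, and those of Slc2a1, Aldoc, Ldhb and Pgd lie just above 0.

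Levels differed more between genes than between libraries. Scaled by exon length, the mean CPM per kilobase over the 6 libraries was 317 for Bsg, 314 for Ldha, 309 for Pkm, 273 for Aldoa, 272 for Taldo1 and 251 for Eno1. Bsg (308 to 330 over the libraries), Ldha (286 to 352) and Pkm (279 to 335) overlapped in their ranges, so their order is not resolved, and the same holds for Aldoa (220.1 to 309.9), Taldo1 (262 to 282) and Eno1 (229 to 284). Tpi1 followed at 171, Pgk1 at 127 and Gpi1 at 125 CPM per kilobase. At the low end stood Slc16a3 at 2.12, Slc16a1 at 8.36, Pfkfb2 at 8.37 and Pfkfb3 at 11.2 CPM per kilobase. The coefficient of variation of CPM over the 6 libraries had a median of 9.57% over the members, against 13.8% over all genes tested. It was under 10% in 17 members, and the share of all genes under 10% was not computed. The members were not matched to all genes by level, on which this measure depends. The most even were Taldo1 (2.36%) and Bsg (2.75%), and the most uneven Eno3 (77.6%), Gapdh (72.0%) and Pfkm (37.8%).

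**Figure D2:**
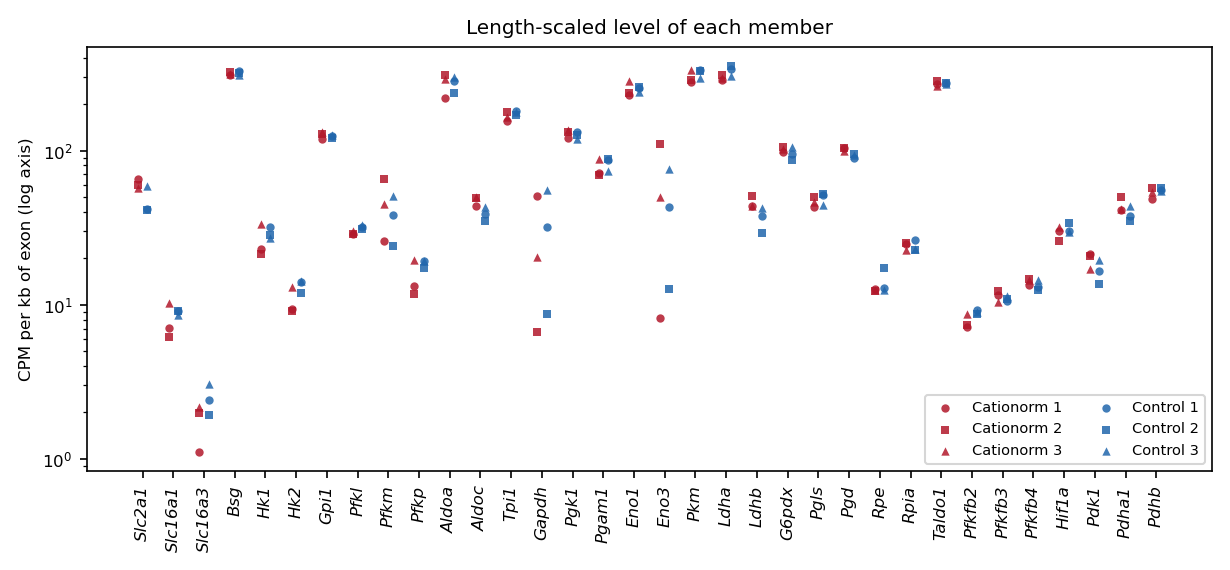
CPM per kilobase of exon (log axis) of each gene, in pathway order from left to right, in the 3 Cationorm libraries (red, left of each pair) and the 3 Control libraries (blue). The points of most genes fall together, Bsg, Ldha and Pkm are at the top near 310 CPM per kilobase, and Gapdh and Eno3 spread over a wide range in both groups.

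Entry and exit of carbon are served by Slc2a1, Slc16a1, Slc16a3 and Bsg. Slc2a1 encodes GLUT1, the glucose transporter of many barrier epithelia. It was at 214, 195 and 185 CPM in Cationorm 1 to 3, against 136, 133 and 193 CPM in Control 1 to 3. Control 3 lay among the Cationorm libraries, and the groups overlapped. The log2 fold change was 0.36 ± 0.15 (SE; 95% interval 0.01 to 0.72; edgeR, adjusted p = 0.550), and it was 0.25 without Control 2 and 0.56 without Control 3. The order of the libraries by Slc2a1 was Cationorm 1, Cationorm 2, Control 3, Cationorm 3, Control 1, Control 2. That was the order of the iris, ciliary body and pigment cell markers except that Control 3 and Cationorm 3 changed places. The share of all genes in such an order was not computed, and the part of that tissue in the Slc2a1 level was not tested.

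Slc16a1 encodes MCT1, a proton-linked lactate and pyruvate carrier. It was at 31.04, 27.4 and 45.5 CPM in Cationorm, against 40.5, 40.0 and 37.7 CPM in Control. Cationorm 3 was the highest library and the other Cationorm libraries the lowest, and the log2 fold change was -0.19 ± 0.18 (adjusted p = 0.708). It was -0.43 without Cationorm 3 (edgeR, adjusted p = 0.0791) and -0.05 without Cationorm 2. Slc16a3 encodes MCT4, the lactate exporter of strongly glycolytic cells, and was the least expressed member, at 4.95, 8.86 and 9.65 CPM in Cationorm, against 10.8, 8.60 and 13.6 CPM in Control (-0.49 ± 0.28, adjusted p = 0.569). Bsg, basigin, is the chaperone that brings both carriers to the plasma membrane. It was even at 518 to 542 CPM in Cationorm and 519 to 556 CPM in Control, with a log2 fold change of -0.02 and a 95% interval of -0.16 to 0.11.

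In upper glycolysis the hexokinases trap glucose as glucose 6-phosphate. Hk1, the housekeeping form, was at 111, 103 and 161 CPM in Cationorm, against 154, 137 and 131 CPM in Control. Hk2, the inducible form, was at 52.4, 51.2 and 73.1 CPM in Cationorm, against 78.6, 66.6 and 79.4 CPM in Control. Both were lowest in Cationorm 1 and Cationorm 2, and the groups overlapped through Cationorm 3. The log2 fold change was -0.17 ± 0.17 for Hk1 (adjusted p = 0.720) and -0.35 ± 0.15 for Hk2 (adjusted p = 0.550). That of Hk1 was -0.39 without Cationorm 3 and -0.06 without Cationorm 2. Hk1 made up 65.4% to 71.6% of the length-scaled level of Hk1, Hk2 and Hk3 in all 6 libraries. Gpi1, glucose 6-phosphate isomerase, stands at the branch point between glycolysis and the pentose phosphate pathway. It was at 340.1 to 381 CPM in Cationorm and 347 to 365 CPM in Control.

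Phosphofructokinase, the committed step, has liver, muscle and platelet forms. Pfkl, the liver form, was at 107, 107 and 113 CPM in Cationorm, against 119.8, 115 and 123 CPM in Control. It was the only member whose Cationorm libraries all lay below the Control libraries, by a small margin (-0.13 ± 0.06, adjusted p = 0.550). Pfkp, the platelet form, was at 57.2, 50.2 and 84.3 CPM in Cationorm, against 81.9, 74.3 and 82.0 CPM in Control (-0.31 ± 0.18, adjusted p = 0.571). Without Cationorm 3 Pfkp passed the edgeR test with a log2 fold change of -0.57 (adjusted p = 0.0422), the only member to do so in any of the fits with a library left out, in a fit that called 350 genes. Hk2 was then at -0.53 (adjusted p = 0.0583). Pfkm, the muscle form, was at 77.2, 196 and 135 CPM in Cationorm, against 115, 71.9 and 152 CPM in Control. Its share of the length-scaled phosphofructokinase level ran from 33.2% in Control 2 to 61.8% in Cationorm 2.

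Both lowest levels belonged to Cationorm 1 and Cationorm 2 in 9 of the 34 genes (26.5%, against 13.8% of all genes tested): Slc16a1, Hk1, Hk2, Pfkl, Pfkp, Pgam1, Eno1, Pkm and Pfkfb2. These were also the libraries with the lowest retina markers, at 2897 and 2257 CPM. Photoreceptors are strongly glycolytic cells. Eno2, the neuronal enolase, had the same pair lowest, at 31.4, 29.3 and 63.2 CPM in Cationorm, against 86.9, 61.7 and 58.7 CPM in Control. Set against the summed retina markers, Hk2 was at 1.81, 2.27 and 1.02 CPM per 100 CPM of markers in Cationorm. In Control it was at 0.892, 0.862 and 1.35. Hk2 varied less than the markers did, and the scaled range was wider than that of Hk2 itself. Hk1 (1.75 to 4.58 over the libraries), Pfkp (0.93 to 2.22) and Slc16a1 (0.46 to 1.21) widened as well. Eno2 was at 1.08, 1.30 and 0.878 CPM per 100 CPM of retina markers in Cationorm, against 0.986, 0.799 and 0.998 in Control, a narrower range than that of Eno2 itself. The part of retinal RNA in these levels was not tested.

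Aldolase A and aldolase C split fructose 1,6-bisphosphate. Aldoa was at 565, 795 and 747 CPM in Cationorm, against 727, 609 and 764 CPM in Control, with groups that overlapped throughout. Aldoc, the form known from brain, was at 129.9, 146 and 149 CPM in Cationorm, against 116, 105 and 128 CPM in Control. Every Cationorm library lay above every Control library, the nearest by a small margin, with a log2 fold change of 0.28 ± 0.09 (95% interval 0.06 to 0.51; adjusted p = 0.550). It was highest among the Control libraries in Control 3, as were the iris, ciliary body and pigment cell markers, but within Cationorm it was lowest in Cationorm 1, where those markers were highest. Their part in the Aldoc level was not tested. Tpi1, triosephosphate isomerase, was at 274 to 313 CPM in Cationorm and 300.2 to 317 CPM in Control (-0.08 ± 0.07, adjusted p = 0.685).

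**Figure D3:**
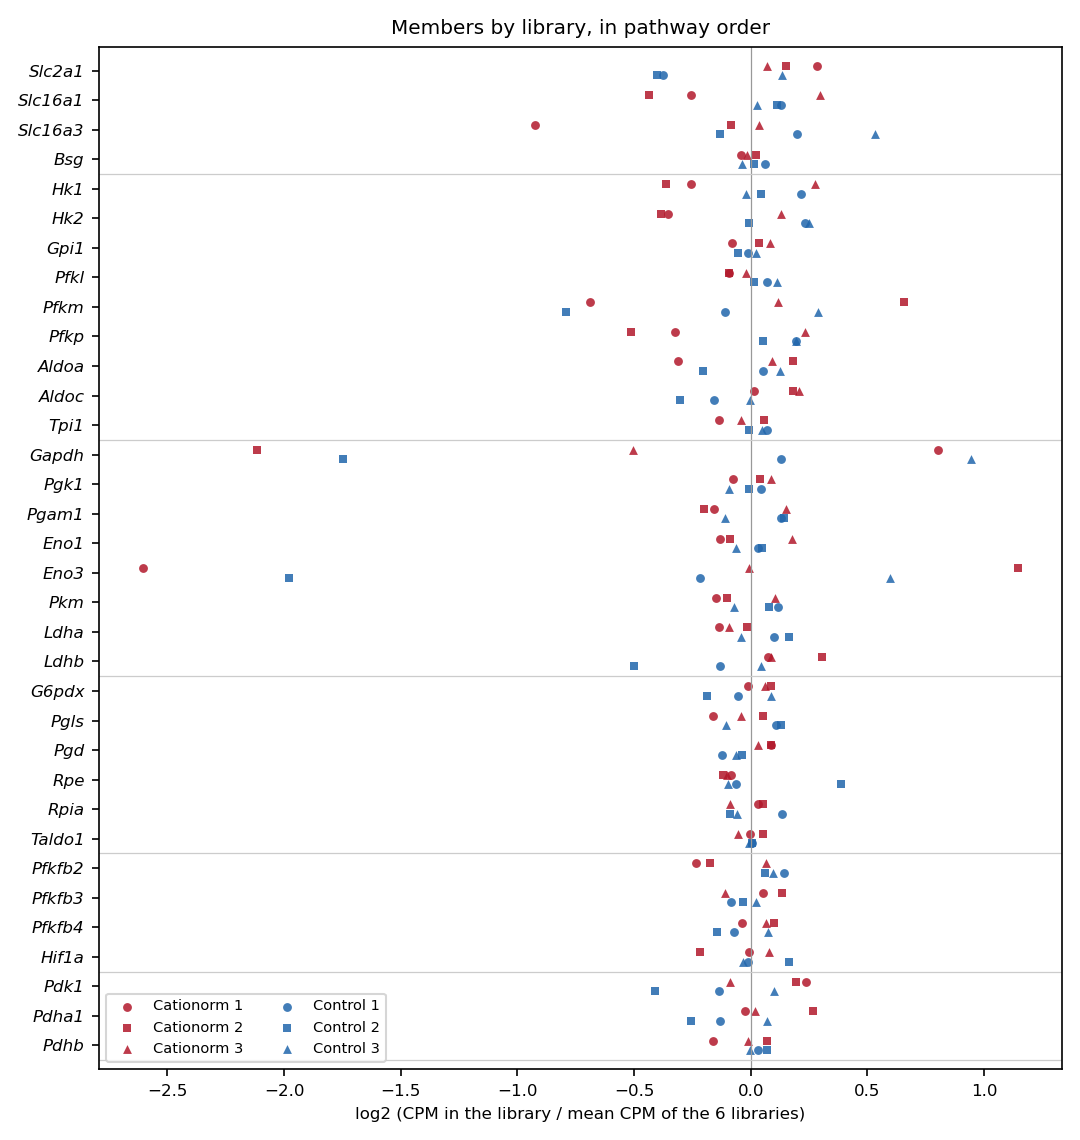
Level of each gene in each library as log2 of its CPM over the mean CPM of the 6 libraries (horizontal axis), in pathway order from top to bottom, with Cationorm (red) above Control (blue) in each row and grey lines between roles. Most genes stay close to 0, while Gapdh, Eno3 and Pfkm spread widely in both groups, with Eno3 lowest in Cationorm 1 and highest in Cationorm 2.

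Gapdh, glyceraldehyde 3-phosphate dehydrogenase, is a common reference gene, and many processed pseudogenes of it are known in the mouse genome. It was at 75.8, 10 and 30.6 CPM in Cationorm 1 to 3, against 47.5, 12.9 and 83.5 CPM in Control 1 to 3, an 8.34-fold range that ran through both groups. The raw counts were 2388, 377 and 1151 in Cationorm, against 1900, 448 and 2931 in Control. A set of 7 other genes of the same stretch of the pathway was Aldoa, Tpi1, Pgk1, Pgam1, Eno1, Pkm and Ldha. They differed between their highest and lowest library by 1.13-fold (Pgk1) to 1.41-fold (Aldoa). The isozymes Aldoc (1.42-fold), Ldhb (1.75-fold) and Eno3 (13.5-fold) were not in that set. Per kilobase, Gapdh was at 50.7, 6.69 and 20.5 CPM in Cationorm, against 31.8, 8.65 and 55.8 CPM in Control, under the lowest of those 7 genes in every library (69.3 CPM per kilobase at the least). In Cationorm 1 it lay above Aldoc (43.6), Ldhb (43.5) and Eno3 (8.21 CPM per kilobase). In Control 3 it lay above Aldoc (43.2) and Ldhb (42.6) but below Eno3 (75.5), and in the remaining libraries below all of these isozymes. The median of the 7 was 4.34, 35.3 and 13.9 times the Gapdh level in Cationorm, against 8.06, 27.5 and 4.31 times in Control. Gapdh ranked between 14 and 33 among the 34 genes by length-scaled level, depending on the library.

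Of the rows of the table named as copies of Gapdh, 4 held 46, 74 and 64 counts in all in Cationorm, against 107, 60 and 81 in Control, or 1.89% to 16.4% of the counts of Gapdh and these rows together. For 7 other members the share of named copies ran from 0.00562% to 0.0241% for Aldoa at the low end to 3.87% to 5.15% for Pgam1 at the high end. How reads that match several places were counted is not given in the sources used here, and reads of Gapdh lost at that step were not tested. The log2 fold change of Gapdh was -0.31 ± 0.81 (adjusted p = 0.903), and it turned positive without Cationorm 2 (0.13) or Control 3 (0.35). The Gapdh counts of these libraries are therefore given as uncertain, and no level here is scaled to them.

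Of the rest of lower glycolysis, Pgk1, phosphoglycerate kinase, was at 221 to 247 CPM in Cationorm and 218 to 239.5 CPM in Control (0.04 ± 0.07, adjusted p = 0.859). Pgam1, phosphoglycerate mutase, was at 127, 123 and 157 CPM in Cationorm, against 155, 156 and 131 CPM in Control (-0.12 ± 0.12, adjusted p = 0.712). Eno1, the general enolase, was at 583 to 723 CPM in Cationorm and 612 to 661 CPM in Control, with a fold change near 0 (-0.01 ± 0.09, adjusted p = 0.966). Pkm, pyruvate kinase, was at 726, 750.0 and 864 CPM in Cationorm, against 871, 848 and 766 CPM in Control (-0.09 ± 0.09, adjusted p = 0.723). In Pgk1, Eno1 and Pkm the spread within the groups was larger than the difference between them.

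Eno3, the enolase of skeletal muscle, was at 12.9, 173 and 77.7 CPM in Cationorm 1 to 3, against 67.3, 19.8 and 118 CPM in Control 1 to 3. Its highest library held 13.5 times its lowest, and both were Cationorm libraries. The log2 fold change was 0.36 ± 0.89 (adjusted p = 0.898), and it was 1.01 without Control 3, -0.60 without Cationorm 2 and -0.09 without Control 2. The libraries stood in the same order for Eno3 as for the summed skeletal muscle markers (Cationorm 2, Control 3, Cationorm 3, Control 1, Control 2, Cationorm 1). Of the members only Aldoa, the main aldolase of muscle, shared that order, which 0.457% of all genes tested did. Per 100 CPM of muscle markers Eno3 was at 12.9, 6.79 and 7.45 CPM in Cationorm, against 8.27, 14.4 and 8.05 CPM in Control, a narrower range than its own. Scaled the same way, Pfkm and Slc16a3 did not narrow. Pfkm was at 77.2, 7.69 and 12.9 CPM per 100 CPM of muscle markers in Cationorm, against 14.1, 52.1 and 10.3 in Control, and Slc16a3 at 4.95, 0.348 and 0.926 in Cationorm, against 1.32, 6.23 and 0.927 in Control. The part of muscle RNA in the Eno3, Aldoa and Pfkm levels was not tested. Pgam2, the muscle phosphoglycerate mutase, picked here after its values were seen, had the same order again, at 3.78, 41.1 and 16.2 CPM in Cationorm, against 15.3, 4.70 and 28.2 CPM in Control.

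**Figure D4:**
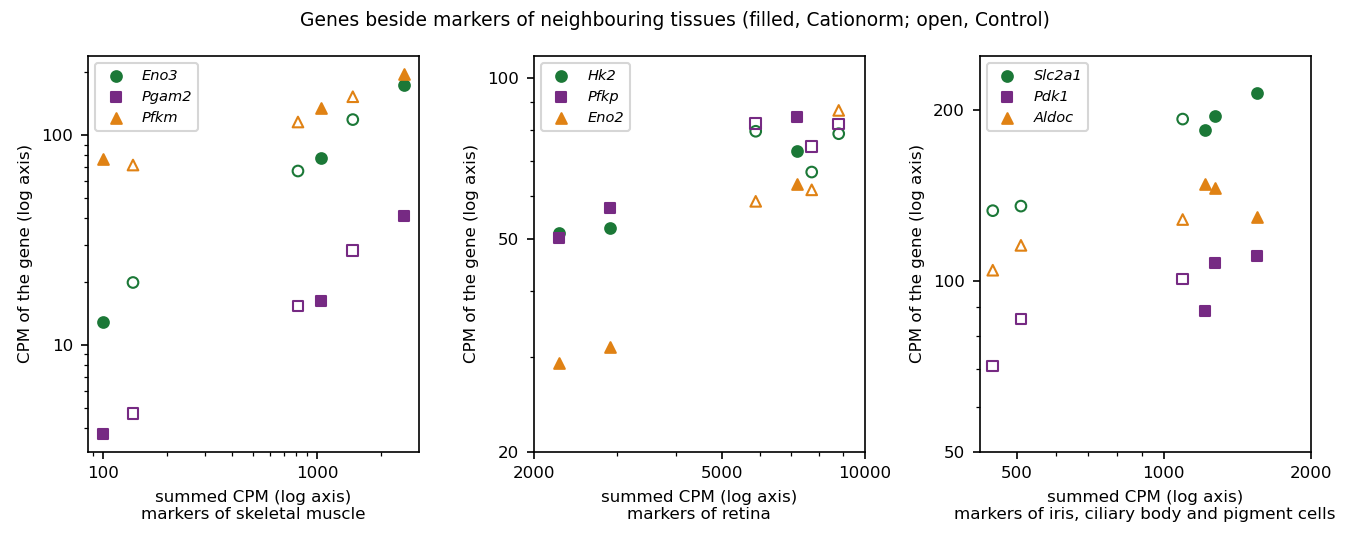
CPM of single genes (vertical, log axis) against the summed CPM of tissue markers (horizontal, log axis) in the 6 libraries, with Cationorm filled and Control open: Eno3, Pgam2 and Pfkm by skeletal muscle (left), Hk2, Pfkp and Eno2 by retina (middle), and Slc2a1, Pdk1 and Aldoc by iris, ciliary body and pigment cells (right). Eno3 and Pgam2 climb with the muscle markers from 12.9 and 3.78 CPM in Cationorm 1 to 173 and 41.1 CPM in Cationorm 2, and in the middle plot Cationorm 1 and Cationorm 2 stand apart at low marker levels.

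Lactate dehydrogenase is a tetramer of A chains, which favour lactate formation, and B chains, known from tissues that take lactate up. Ldha was at 542, 589.5 and 557 CPM in Cationorm, against 638, 667 and 578 CPM in Control, and only Cationorm 2 and Control 3 crossed (-0.16 ± 0.07, adjusted p = 0.550). Ldhb was at 56.7, 66.5 and 57.2 CPM in Cationorm, against 49.2, 38.1 and 55.6 CPM in Control, without overlap between the groups. Its log2 fold change was 0.34 ± 0.14 (95% interval 0.00 to 0.67; adjusted p = 0.550), and 0.18 without Control 2. Ldha made up 85.9% to 87.0% of the length-scaled Ldha and Ldhb level in Cationorm and 87.7% to 92.3% in Control.

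The promoters of Ldha and Ldhb are shown because their ratio is among the measures that separated the groups, and that of Slc2a1 because it had the largest positive log2 fold change of the members. The sequences are from RefSeq on GRCm38.p6, 250 bases upstream of the start of the gene, read 5′ to 3′ on its strand. They lie at chr7:46845554-46845803 (+) for Ldha, chr6:142507958-142508207 (-) for Ldhb and chr4:119108495-119108744 (+) for Slc2a1. Capitals mark ACGTG on either strand, a core that hypoxia-inducible factor can bind, and overlapping matches are marked as 1 site.
Ldha: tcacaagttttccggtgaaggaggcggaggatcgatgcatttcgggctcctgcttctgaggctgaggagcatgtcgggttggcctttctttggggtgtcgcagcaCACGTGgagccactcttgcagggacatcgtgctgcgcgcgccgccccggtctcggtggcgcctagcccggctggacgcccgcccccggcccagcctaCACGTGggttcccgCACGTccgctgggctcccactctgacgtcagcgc
Ldhb: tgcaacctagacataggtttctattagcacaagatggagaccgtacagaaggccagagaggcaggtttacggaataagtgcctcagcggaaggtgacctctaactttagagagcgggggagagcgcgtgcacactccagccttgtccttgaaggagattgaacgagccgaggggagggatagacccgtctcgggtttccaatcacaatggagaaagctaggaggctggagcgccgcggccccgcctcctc
Slc2a1: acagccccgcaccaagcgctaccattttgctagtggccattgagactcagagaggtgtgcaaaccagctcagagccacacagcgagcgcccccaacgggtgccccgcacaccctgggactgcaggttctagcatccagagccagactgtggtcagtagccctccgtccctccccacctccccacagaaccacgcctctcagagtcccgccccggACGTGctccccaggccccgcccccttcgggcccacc
The Ldha stretch holds 3 marked sites, 2 of them inside CACGTG, which is the E-box bound by Myc and its relatives. The Ldhb stretch holds 0 marked sites and the Slc2a1 stretch 1. The variant core GCGTG, read on either strand, is not marked and occurs in the Ldhb and Slc2a1 stretches. Of the 34 genes 33 matched the RefSeq table, with 49 promoter windows. ACGTG, on either strand, was in 18 of these windows (36.7%), against 16.6% of all 32851 windows, and its variant GCGTG was in 59.2% against 28.2%. The members' windows were also richer in CpG, which both cores contain, with a median of 14 per window against 6 in all windows. The matches describe the letters of these windows only.

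Ratios of counts within a library do not depend on how libraries are scaled. Of 10 ratios, 2 separated the groups, and 3 libraries against 3 cannot give a two-sided exact permutation p under 0.10. Ldha over Ldhb was 9.55, 8.87 and 9.74 in Cationorm 1 to 3, against 13, 17.5 and 10.4 in Control 1 to 3. The Cationorm ratios were close together and the Control ratios spread, with a difference in mean log2 ratio of -0.51 (exact permutation p = 0.10, 0.50 adjusted over the 10 ratios), or -0.31 without Control 2. Aldoc over Aldoa was 0.230, 0.184 and 0.199 in Cationorm, against 0.159, 0.172 and 0.168 in Control, a difference of 0.29 in mean log2 ratio (exact permutation p = 0.10, adjusted 0.50). Since the summed muscle markers differ and Aldoa stood in their order, the part of muscle RNA in that ratio was not tested. The other ratios overlapped between the groups, with exact permutation p between 0.2 and 0.9. Hk2 over Hk1 was 0.470, 0.495 and 0.454 in Cationorm, against 0.509, 0.487 and 0.606 in Control.

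**Figure D5:**
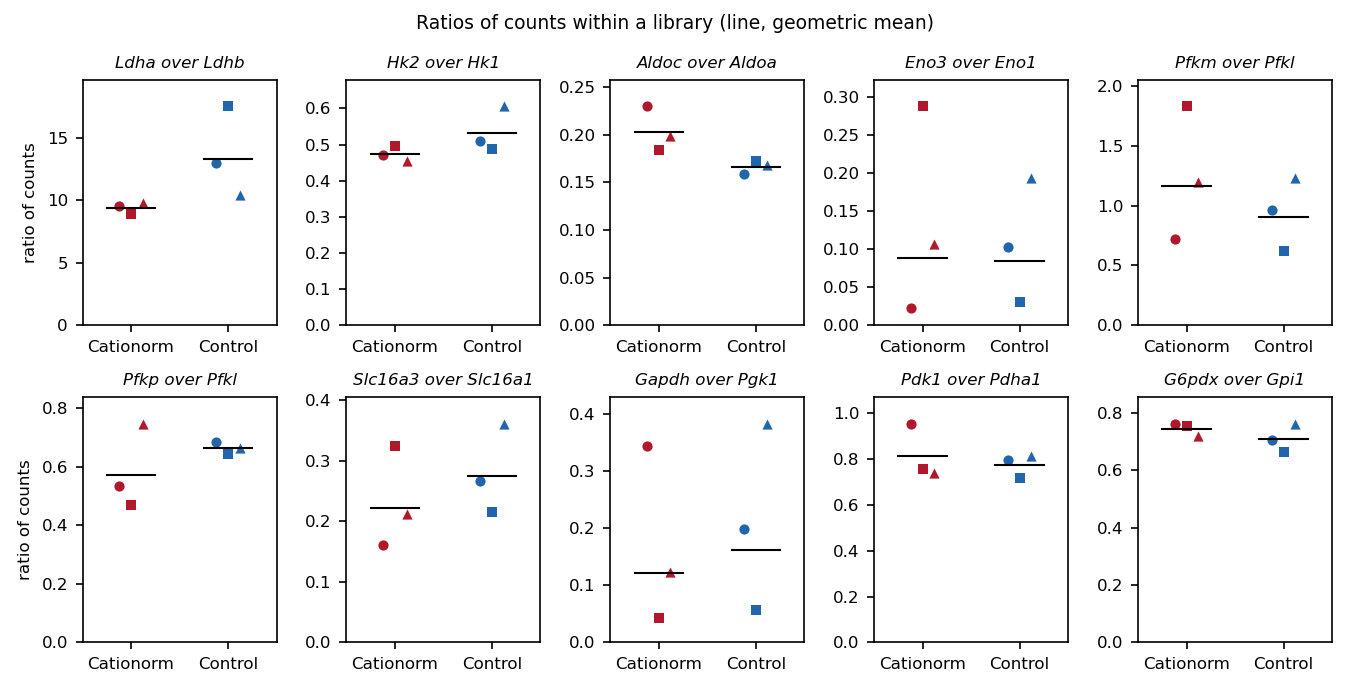
Ratio of the counts of 2 genes within each library (vertical axes, from 0) for the 10 pairs, with the 3 Cationorm libraries (red) left of the 3 Control libraries (blue) and a line at the geometric mean of each group. The groups do not overlap for Ldha over Ldhb (8.87 to 9.74 against 10.4 to 17.5) and Aldoc over Aldoa (0.184 to 0.230 against 0.159 to 0.172), and in Eno3 over Eno1 and Gapdh over Pgk1 both groups spread widely.

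In the oxidative branch of the pentose phosphate pathway, Pgd, the dehydrogenase that yields ribulose 5-phosphate and NADPH, was at 229, 229 and 220.5 CPM in Cationorm, against 198, 210.4 and 207 CPM in Control. All Cationorm libraries lay above all Control libraries by a small margin, with a log2 fold change of 0.14 ± 0.06 (95% interval 0.01 to 0.28; adjusted p = 0.550). G6pdx, which starts the branch, was at 259, 278 and 273 CPM in Cationorm, against 252, 230.0 and 278 CPM in Control (0.09 ± 0.08, adjusted p = 0.683). Pgls, the lactonase between them, was at 50.4 to 58.5 CPM in Cationorm and 52.4 to 61.7 CPM in Control.

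In the non-oxidative branch, Taldo1, transaldolase, was at 370.4 ± 13.7 CPM in Cationorm and 371 ± 1.86 CPM in Control (SD, n = 3 each), with a 95% interval of the log2 fold change of -0.13 to 0.13. Rpia, ribose 5-phosphate isomerase, averaged 44.0 CPM in both groups (95% interval -0.20 to 0.20). Rpe, the epimerase, was at 33.4 to 34.2 CPM in Cationorm and at 34.7, 47.3 and 33.9 CPM in Control, where Control 2 stood apart (-0.19 ± 0.13, adjusted p = 0.609). Tkt, transketolase, which is also a crystallin of the cornea, was at 6521 to 7080 CPM in Cationorm and 6284 to 6814 CPM in Control.

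The bifunctional enzymes set the level of fructose 2,6-bisphosphate, the activator of phosphofructokinase. Pfkfb2 was at 35.8, 37.3 and 44.0 CPM in Cationorm, against 46.5, 43.8 and 45.0 CPM in Control (-0.21 ± 0.09, adjusted p = 0.550), with the groups overlapping only through Cationorm 3. Pfkfb3, the form with the highest kinase relative to phosphatase activity, was at 57.3 to 67.9 CPM in Cationorm and 58.4 to 62.9 CPM in Control (0.06 ± 0.08, adjusted p = 0.790). Pfkfb4 was at 46.8 to 51.3 CPM in Cationorm and 43.4 to 50.5 CPM in Control (0.09 ± 0.08, adjusted p = 0.689). Hif1a, the oxygen-regulated subunit of hypoxia-inducible factor, which is controlled mainly at the protein level, was at 163, 142 and 173 CPM in Cationorm, against 163, 184 and 161 CPM in Control (-0.09 ± 0.09, adjusted p = 0.743).

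Pyruvate dehydrogenase admits pyruvate to the mitochondrion, and its kinases switch it off. Pdk1, the kinase induced by hypoxia-inducible factor, was at 111, 108 and 88.5 CPM in Cationorm, against 85.7, 70.9 and 101 CPM in Control (0.25 ± 0.14, adjusted p = 0.567), or 0.11 without Control 2 and 0.39 without Control 3. The libraries stood in the same order for Pdk1 as for Slc2a1, and the share of all genes in that order was not computed. Pdha1, the E1 alpha subunit, was at 116, 142 and 119.7 CPM in Cationorm, against 108, 99.0 and 124 CPM in Control (0.19 ± 0.11, adjusted p = 0.572), and Pdhb, the E1 beta subunit, at 73.7 to 86.6 CPM in Cationorm and 82.4 to 86.7 CPM in Control (-0.07 ± 0.07, adjusted p = 0.761). Control 1 and Control 2 were the lowest libraries in 7 members (20.6%, against 16.9% of all genes tested), a share near that of all genes. The 7 were Slc2a1, Aldoc, Ldhb, G6pdx, Pfkfb4, Pdk1 and Pdha1. Control 1 and Control 2 were also lowest in the iris, ciliary body and pigment cell markers, at 509 and 446 CPM. The part of that tissue in these 7 genes was not tested.

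Other genes of the pathway were counted in 7 further lists, in which edgeR called 0 genes. Of all genes tested, 5.16% were higher and 3.57% lower at an unadjusted p under 0.05 (edgeR). Of 12 other glycolytic enzyme genes tested, 0 were higher and 1 lower at an unadjusted p under 0.05: Eno2, given above (-0.74 ± 0.31, adjusted p = 0.550). Bpgm, which makes 2,3-bisphosphoglycerate, came next at 25.8 to 30 CPM in Cationorm and 21.3 to 27.4 CPM in Control. Of 13 glucose and monocarboxylate carriers, 2 were higher and 2 lower by that measure. Slc2a6, a glucose transporter family member, was at 0.762, 0.637 and 0.798 CPM in Cationorm, against 1.58, 1.79 and 1.17 CPM in Control (-1.04 ± 0.27, adjusted p = 0.550). Slc2a10, another member of that family, was at 3.75, 4.33 and 3.35 CPM in Cationorm, against 2.08, 2.65 and 2.96 CPM in Control (0.57 ± 0.21, adjusted p = 0.550). In both, the groups did not overlap. The other two genes of that count, named after their values were seen, were Slc2a12 and Slc2a3, the neuronal glucose transporter. Slc2a12 was at 11.01, 12.9 and 11.2 CPM in Cationorm, against 8.38, 7.33 and 10.6 CPM in Control. Slc2a3 was at 3.71, 3.61 and 9.02 CPM in Cationorm, against 13.1, 10.8 and 8.06 CPM in Control, lowest in the libraries with the lowest retina markers, whose part in it was not tested.

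Of 22 genes of the hypoxia-inducible factor pathway and its targets, 0 were higher and 2 lower at an unadjusted p under 0.05 (edgeR). At that level 5.16% of all genes tested were higher and 3.57% lower. The median log2 fold change over the list was 0.02. Ankrd37, a small hypoxia target, was at 0.920, 0.504 and 1.01 CPM in Cationorm, against 1.85, 2.05 and 1.37 CPM in Control (-1.11 ± 0.33, adjusted p = 0.550), without overlap. Ddit4, a stress and hypoxia gene that restrains mTORC1, was at 22.3, 24.7 and 30.7 CPM in Cationorm, against 44.8, 47.5 and 26.6 CPM in Control (-0.61 ± 0.23, adjusted p = 0.550), and the groups overlapped through Control 3.

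Of 11 glycogen genes tested, 10 had a log2 fold change above 0 (median 0.22), against 9626 of all 18804 genes tested. Control 2 was the lowest library in 9 of the 11, and in 22.1% of all genes. Pygm, the muscle glycogen phosphorylase, named after its values were seen, was at 30.3, 141.7 and 73.1 CPM in Cationorm, against 54.03, 26.4 and 91.9 CPM in Control, the order of the muscle markers except for the lowest pair of libraries, and the part of muscle RNA in this list was not tested. By the test, 1 gene, the brain form of glycogen phosphorylase, Pygb, was higher at an unadjusted p under 0.05, as were 5.16% of all genes tested. Pygb was at 125, 124 and 112 CPM in Cationorm, against 94.95, 91.95 and 112 CPM in Control (0.27 ± 0.09, adjusted p = 0.550). The medians of the other lists lay between 0.03 and 0.06. Shpk, which phosphorylates sedoheptulose, had a log2 fold change of 0.24 ± 0.11 and H6pd, the dehydrogenase of the endoplasmic reticulum, 0.25 ± 0.14. Pdk2, a kinase of pyruvate dehydrogenase, was at 0.33 ± 0.16 and Pdk3, its relative, at 0.20 ± 0.11. Sord, sorbitol dehydrogenase, was at 0.26 ± 0.09 (unadjusted p = 0.0272, edgeR) and Pck2, the mitochondrial phosphoenolpyruvate carboxykinase, at 0.15 ± 0.11, and these 6 genes had adjusted p between 0.550 and 0.629.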

How the data were processed

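The deposited table holds raw read counts per gene symbol, with 1 column for each library, per the file headers. Per the labels' protocols, TRIzol was used for extraction and TruSeq for libraries of enriched mRNA. The submitters' processing notes name DESeq2 and the builds GRCm39 and mm39 with no role. The aligner, counter, annotation and strandedness are not given in the sources used, so reads of overlapping or near-identical genes may be split or lost.

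Counts were filtered with filterByExpr (18804 of 35673 genes kept), scaled by TMM and tested by edgeR 4.0.16 (quasi-likelihood, R 4.3.3) with no covariate. All 34 members passed the filter. Intervals are 95%, and standard errors were derived from each gene's F statistic and fold change. The procedure was tested on simulated counts. Depth limits precision: 3 counts, taken as the limit for a count of 0, are 0.0765 to 0.0923 CPM of the raw totals. These values are without TMM factors and for counting error only. The labels give a single batch and do not say that replicates are separate animals, so the spread behind each p-value is that between these libraries and may be technical. No 2 libraries of a group were alike within sampling noise (the smallest chi-square over its degrees of freedom was 32.8). Exon lengths are unions of the GENCODE M21 basic annotation (GRCm38), an older build, used for levels per kilobase only. Ratios were tested by exact two-sided permutation. The members, lists and ratios were chosen with earlier results of these data known. All members were named, with the 2 genes of smallest p in each further list, of which 1 is not reported here. Genes absent by symbol (Pgk2, Gyg1, Akr1b3 and Lim2) gave no value. Alternatives were other scalings and filters, DESeq2 1.42.0, limma-voom (limma 3.58.1), the replicate block and leaving out each library.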

Additional observations from a re-analysis of the deposited data

How the results depend on the processing

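Over the fits with a library left out, edgeR called between 0 and 350 genes and between 0 and 1 members, with 350 genes and Pfkp without Cationorm 3, 8 genes without Control 3 and 1 gene without Control 2. DESeq2 called 51 genes. Of the other scalings, filters and tests with all libraries, none called a gene or a member. Members higher at an unadjusted p under 0.05 numbered 4, and between 0 and 5 with a library left out (0 without Cationorm 2, 1 without Cationorm 1, Control 1 or Control 2). They numbered 2 with the strict filter (1 CPM in 3 libraries and 50 counts in all), and 1 without scaling factors or with the replicate block. Members lower at that level numbered 0, and between 0 and 6 with a library left out (6 without Cationorm 3). They numbered 1 with DESeq2 size factors, 1 with the strict filter, 1 with limma-voom and 1 with the replicate block, 2 without a filter, 2 without scaling factors, and 3 with the DESeq2 test. Shares of all genes at the unadjusted level were not computed for these other fits. The median log2 fold change of the members lay between -0.0588 and -0.0001 with a library left out. Of the 10 ratios, between 2 and 4 separated the groups with a library left out, with 4 without Cationorm 2, and 2 did with 0.5 counts added. Groups that do not overlap stay apart when a library is left out, so that count could not fall below 2. Fewer libraries also separate more easily, so a rise does not test the ratios.

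With the replicate block, 0 genes were called, and 2 of the 10 ratios differed in 1 direction in all 3 pairs of equal number. These 2 were the ratios whose groups did not overlap. Any pairing would give them 1 direction, so that count does not test the pairing. Deviations from the group means of equally numbered libraries correlated at -0.178, -0.306 and -0.163. Among the pairs of unequal number, 3 were positive and the rest negative. The positive pairs were Cationorm 1 with Control 2 (0.317), Cationorm 2 with Control 3 (0.351) and Cationorm 3 with Control 1 (0.209). RNA of neighbouring tissues also differs between libraries, so these values cannot tell whether equally numbered libraries shared handling.

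The direction was kept in 24 members in every fit. Aldoa turned to -0.003 with DESeq2 size factors, the DESeq2 test and limma-voom, -0.002 with upper-quartile factors, -0.028 without scaling factors and -0.005 with the replicate block. Gpi1 turned to -0.005 without scaling factors, and with the replicate block Eno3 turned to -0.122 and Rpia to 0.002. With a library left out, the log2 fold change ran from -0.056 to 0.002 for Bsg, -0.009 to 0.073 for Gpi1, -0.101 to 0.551 for Pfkm, -0.107 to 0.139 for Aldoa, -1.24 to 0.355 for Gapdh, -0.117 to 0.045 for Eno1, -0.595 to 1.012 for Eno3, -0.061 to 0.073 for Rpia, -0.045 to 0.024 for Taldo1 and -0.011 to 0.125 for Pfkfb3. Leaving out a library lowers the number of samples, and otherwise the cause was not tested.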
